A study of Mus musculus with 6 samples.

Results

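The genes described here serve the electrical motor of outer hair cells and the brainstem feedback that restrains it: Slc26a5, Ocm, Kcnma1, Kcnn2, Chrna9, Chrna10 and Ikzf2. They were chosen by role, with earlier results of these data known. Every probe set whose single platform gene symbol was among these names was taken. This gave 8 probe sets for 7 genes, out of 21789 probe sets with 1 symbol and 35557 in all. Kcnma1 had 2 probe sets and each other gene had 1. Total RNA of the dissected organ of Corti, the sensory strip of the cochlea, was hybridised to Affymetrix mouse gene arrays at postnatal day 15. Mice homozygous for the inactivated pejvakin gene (Pjvk-/-, called knockout) and mice with 2 intact copies (Pjvk+/+, called wild-type) shared a mixed C57BL/6J-129/Sv background, with 3 arrays per genotype. The labels do not say whether an array held 1 animal or a pool, nor that the samples were independent, so the p-values cover only the differences seen among these arrays, part of which may be technical.

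Outer hair cells amplify sound by changing length with their membrane voltage, a movement driven by prestin, the membrane protein that Slc26a5 encodes. Cholinergic nerve fibres from the brainstem contact them at their base and damp that movement: acetylcholine opens a receptor made of the alpha9 and alpha10 subunits, calcium enters, and the calcium opens potassium channels that hyperpolarise the cell. In mice the age sampled lies shortly after the onset of hearing, when prestin, oncomodulin and the large-conductance potassium channels have appeared. The comparison of the genotypes asks whether transcripts of this machinery differ in the organ of Corti that lacks pejvakin.

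None of the 7 genes passed an adjusted p under 0.05 in limma, where 0.0351% of all 19938 genes did. Ocm read higher in all 3 knockout arrays than in any wild-type array, by 0.21 on the log2 scale, and Kcnma1 and Kcnn2 read lower in all 3, by -0.18 and -0.23. Slc26a5, Chrna9, Chrna10 and Ikzf2 had overlapping groups. The largest point estimate in size was 1.20-fold, for Chrna9, which also had the largest SE of the 7.

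A few facts of the series bear on these values. The Pjvk probe set itself was lower in the knockout by -0.59 (SE 0.09, adjusted p = 0.105), with no overlap, and it was dim, at percentile 11.3 of the genes tested. Arrays correlated at 0.9913 to 0.994 with each other over all probe sets, and by that measure no array stood apart. Markers of the labelled tissue covered a wide range of signal: the 18 hair cell genes measured ran from percentile 30.8 of all genes, for Myo15, to 95.8, for Myo6, and the 15 supporting cell genes from 31.4, for Tecta, to 99.7, for Epyc. The neurofilament gene Nefl lay at percentile 99.8 and the myelin gene Mbp at percentile 99.4. Probe sets differ in brightness for the same amount of RNA, so these percentiles describe signal only. Y-linked transcripts, 3 of 4 listed genes measured, were lower in the knockout, with list means from 7.39 to 7.58 against 7.65 to 8.05. Their part in the differences below was not tested. For the 7 genes and some list medians, a model that includes that level was also fitted. Those lists were the channel, receptor, calcium, Slc26, Ikaros, hair cell, inner hair cell and other outer hair cell lists. The value from that model is given where it turns a direction or alters the size by over 1.5 times. For other single genes and the other marker lists it is not given.

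**Figure D1:**
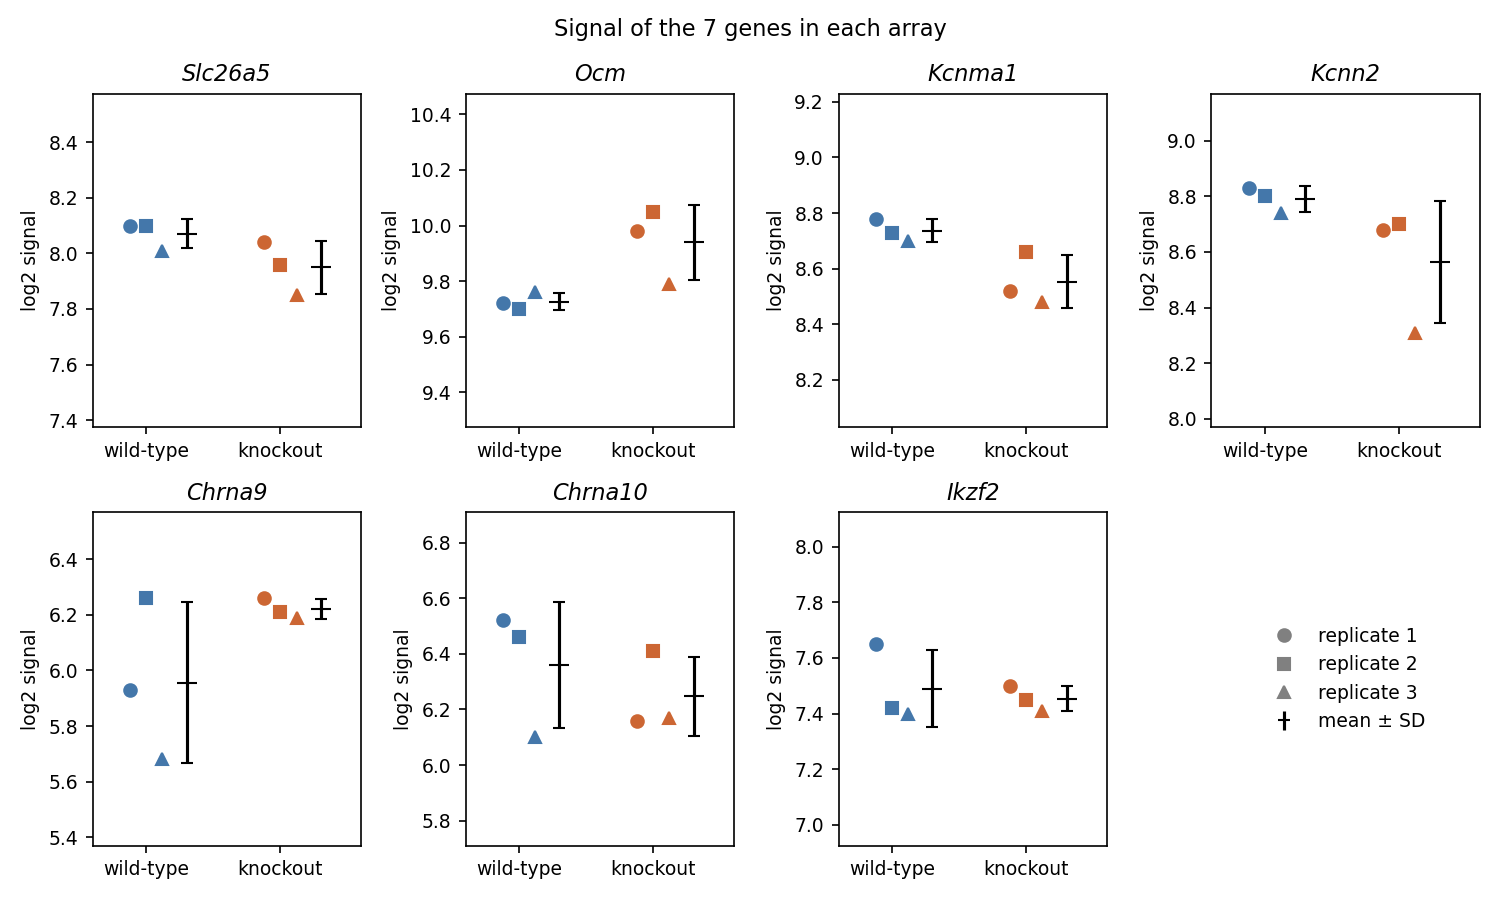
Log2 signal of each of the 7 genes in the 3 wild-type (blue) and 3 knockout (orange) arrays, with marker shapes for the replicate number and the mean ± SD in black; each panel spans the same height around its own centre. Ocm lies higher and Kcnma1 and Kcnn2 lower in every knockout array, and the other genes overlap.

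Slc26a5 encodes prestin. Its log2 signal was 8.04, 7.96 and 7.85 in the knockout against 8.10, 8.10 and 8.01 in the wild-type. The lowest wild-type array lay just below the highest knockout array, so the groups overlapped. The difference was -0.12 (SE 0.07, 95% interval from -0.27 to 0.03, adjusted p = 0.473; exact two-sided permutation p = 0.2). After adding the Y-linked level to the model the difference was 0.01 (SE 0.10), and without knockout replicate 3 it was -0.07.

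Oncomodulin, the product of Ocm, is an EF-hand calcium buffer of the parvalbumin family that fills mature outer hair cells and is scarce in inner hair cells. Its signal was 9.98, 10.05 and 9.79 in the knockout against 9.72, 9.70 and 9.76 in the wild-type. All knockout arrays were above all wild-type arrays, but replicate 3 of the knockout exceeded the highest wild-type array only slightly. The difference was 0.21 (SE 0.07, 95% interval from 0.05 to 0.38), or 1.16-fold, with an unadjusted limma p of 0.0188 and an adjusted p of 0.333. By exact two-sided permutation p was 0.1, the smallest that 3 arrays against 3 allow. Leaving out 1 array at a time gave 0.16 to 0.29.

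The 250 bases before the annotated start of Slc26a5 and the part of the matching Ocm window that lies outside the annotated gene are shown because prestin and oncomodulin are the usual protein markers of outer hair cells and the point estimates of their genes had opposite signs. Both come from RefSeq on GRCm38.p6, chr5:21865605-21865854 and chr5:144050641-144050859, each on the minus strand and written 5′ to 3′ toward the start; capitals mark matches on either strand to TGGGAA, the core bound by Ikaros family zinc fingers, and to GGGCGG, the GC box of Sp1 family factors.
Slc26a5: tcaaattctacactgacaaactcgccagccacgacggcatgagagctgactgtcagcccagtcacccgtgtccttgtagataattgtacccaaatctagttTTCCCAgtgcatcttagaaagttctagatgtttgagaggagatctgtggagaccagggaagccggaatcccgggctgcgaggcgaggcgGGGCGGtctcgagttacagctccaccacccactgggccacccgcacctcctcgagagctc
Ocm: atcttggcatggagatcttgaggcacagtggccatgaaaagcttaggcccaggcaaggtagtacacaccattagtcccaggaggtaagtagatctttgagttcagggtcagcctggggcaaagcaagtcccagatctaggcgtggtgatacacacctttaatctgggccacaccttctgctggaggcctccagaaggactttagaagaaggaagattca

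Promoter windows of 250 bases were found for 5 of the 7 genes, all but Kcnn2 and Ikzf2. The Kcnma1, Chrna9 and Chrna10 windows lie partly or wholly inside the annotated gene, and the Ocm window partly, so their matches may lie within the gene. The Slc26a5 window held 1 match to TGGGAA, which begins 149 bases before the start, and 1 GC box at 60 bases, with 13 CG pairs. The whole Ocm window held neither motif and 1 CG pair. Chrna10 held 2 matches to TGGGAA, and Chrna9 and Kcnma1 none. Kcnma1 held 3 GC boxes, 2 of them overlapping, and 31 CG pairs, with a GC content of 79.2%. TATAAA was in none of the 5 windows. Of 27025 promoters of the same length, 21.5% held TGGGAA, 32.9% held GGGCGG and 13% held TATAAA on either strand, so each match is common. These matches describe letters only.

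Kcnma1 encodes the pore of the large-conductance (BK) channel, which opens with calcium and voltage and carries much of the outward potassium current of mature hair cells. Its brighter probe set read 8.52, 8.66 and 8.48 in the knockout and 8.78, 8.73 and 8.70 in the wild-type. Every knockout array was below every wild-type array, and the wild-type arrays lay within a narrow range. The difference was -0.18 (SE 0.06, 95% interval from -0.33 to -0.04), or 1.14-fold, with an unadjusted limma p of 0.0201 and an adjusted p of 0.336 (exact permutation p = 0.1). It was -0.10 (SE 0.11) after adding the Y-linked level to the model and -0.11 with the mean of both probe sets. The other Kcnma1 probe set was among the dimmest of the table, at percentile 6.8 of the probe sets with 1 symbol, and differed by -0.03 (SE 0.09, adjusted p = 0.910). It read 4.08, 4.15 and 4.04 in the knockout and 4.11, 4.31 and 3.94 in the wild-type.

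BK channels are also abundant in smooth muscle, and some vessel genes also read lower in the knockout. Of 9 smooth muscle markers, all measured, 5 were lower and 4 higher, and none was called. Acta2 and Myh11, contractile proteins, differed by -0.38 (SE 0.07) and -0.31 (SE 0.07), while Mylk, the myosin light chain kinase, differed by 0.23 (SE 0.07). The list mean lay between 7.15 and 7.23 in knockout arrays and between 7.21 and 7.33 in wild-type arrays. Its part in the Kcnma1 difference was not tested. In dissected tissue, fewer cells of a type and less RNA per cell cannot be told apart.

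Kcnn2 encodes SK2, the small-conductance potassium channel opened by calcium that enters through the acetylcholine receptor. It read 8.68, 8.70 and 8.31 in the knockout and 8.83, 8.80 and 8.74 in the wild-type. Knockout replicate 3 was far lower than the other arrays, yet the other two knockout arrays were also below the wild-type range. The difference was -0.23 (SE 0.10, 95% interval from -0.46 to 0.005), or 1.17-fold (unadjusted p = 0.0539, adjusted p = 0.406, limma; exact permutation p = 0.1). It rested largely on that array: without knockout replicate 3 it was -0.10 (adjusted p = 0.683). After adding the Y-linked level to the model it was -0.02 (SE 0.16). Kcnn2 is also a neuronal gene; of 12 neuron markers 5 were higher and 7 lower, with list means between 9.68 and 9.89 in knockout arrays and between 9.74 and 9.77 in wild-type arrays.

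Chrna9 encodes the alpha9 subunit of the efferent acetylcholine receptor. It read 6.26, 6.21 and 6.19 in the knockout and 5.93, 6.26 and 5.68 in the wild-type. The knockout arrays were almost equal, whereas the wild-type arrays were spread widely, and wild-type replicate 2 equalled the highest knockout value. The difference was 0.26 (SE 0.13, 95% interval from -0.02 to 0.55, adjusted p = 0.424; exact permutation p = 0.4). Without wild-type replicate 3 it was 0.125 and without wild-type replicate 2 it was 0.415, so the size of the difference followed single wild-type arrays. After adding the Y-linked level to the model it was 0.48 (SE 0.21, adjusted p = 0.910 in limma).

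Chrna10 encodes the partner subunit alpha10, which raises the current of the receptor. It read 6.16, 6.41 and 6.17 in the knockout and 6.52, 6.46 and 6.10 in the wild-type, with full overlap. The difference was -0.11 (SE 0.12, 95% interval from -0.38 to 0.15, adjusted p = 0.700, exact permutation p = 0.6). It was 0.21 (SE 0.16) after adding the Y-linked level to the model. Without that term, leaving out any 1 of the arrays altered the size of the difference by over 1.5 times. It then ran from -0.03 without wild-type replicate 1 to -0.24 without wild-type replicate 3. Both receptor genes were dim, at percentiles 31.7 and 35.6 of the genes tested. Their intervals span changes to either side that this number of arrays could not resolve.

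Ikzf2 encodes Helios, a zinc finger transcription factor of the Ikaros family needed for the maturation of outer hair cells. It read 7.5, 7.45 and 7.41 in the knockout and 7.65, 7.42 and 7.40 in the wild-type. Only wild-type replicate 1 stood above the knockout range. The difference was -0.04 (SE 0.08, 95% interval from -0.21 to 0.14, adjusted p = 0.862; exact permutation p = 0.9). It was 0.04 without wild-type replicate 1, -0.08 without wild-type replicate 3 and 0.17 (SE 0.10) after adding the Y-linked level to the model. Ikzf2 is also expressed by lymphocytes, whose markers, 9 of 10 measured, were dim, with list means of 5.67 to 5.76 in knockout arrays and 5.62 to 5.68 in wild-type arrays.

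**Figure D2:**
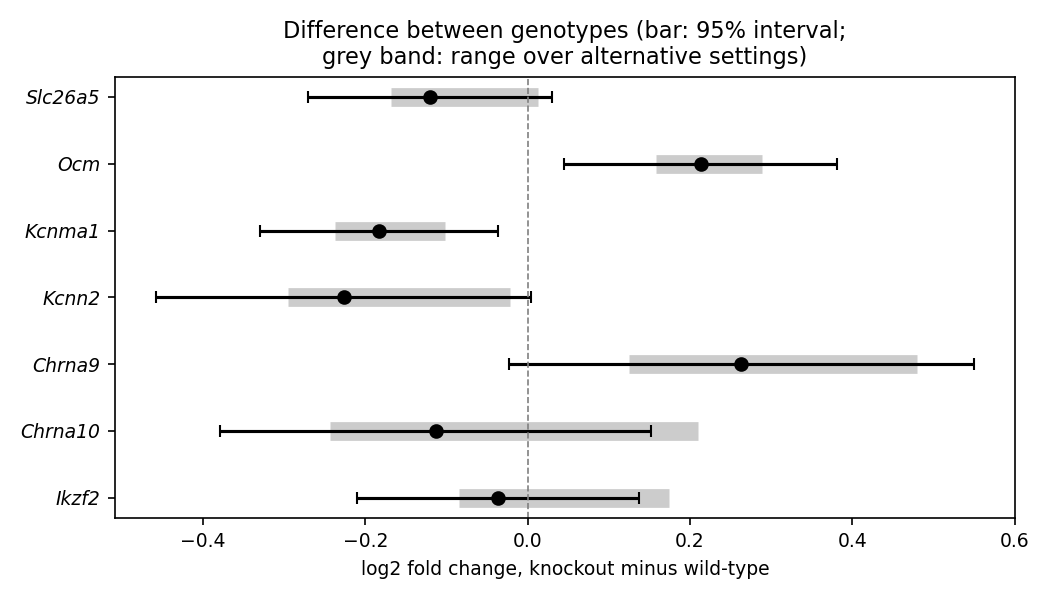
Log2 fold change of each gene, knockout minus wild-type (points), with its 95% interval from limma (black bars) and the range over all alternative settings including the main one (grey bands). The intervals of Ocm and Kcnma1 do not reach 0, and the bands of Ocm, Kcnma1, Kcnn2 and Chrna9 stay on one side of it.

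Set together, 2 of the 7 genes were higher and 5 lower, with a median of -0.11 against -0.01 over all genes, of which 8955 were higher and 10723 lower. Over genes at or above the median level, where all of the 7 but Chrna9 and Chrna10 lie, the median was -0.04. At an unadjusted p under 0.05 stood 2 of the 7, 1 in each direction, against 12.4% of all genes, 5.74% higher and 6.66% lower. The groups did not overlap for 3 of the 7, against 17.8% of all genes. Of those 3, Kcnma1 and Kcnn2 were below the wild-type, where 11.3% of all genes lay, and Ocm above it, where 6.59% lay. With 7 genes these shares are a description. None of the 7 lies on the chromosome of Pjvk.

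Hair cell markers read in both directions. Of 20 listed genes 18 were measured, 11 higher and 7 lower, with a median of 0.05, and none was called. Restricted to the brighter markers, those not below the median signal of all genes, where Kcnma1 and Kcnn2 also lie, the median was -0.03. All genes of that level had a median of -0.04. Over all 18 markers the median was 0.0007 after adding the Y-linked level to the model. Without that term it was 0.02 without wild-type replicate 1, 0.03 without wild-type replicate 3 and 0.09 without wild-type replicate 2. The mean of the list lay between 7.15 and 7.16 in the knockout arrays and between 7.07 and 7.13 in the wild-type arrays. In 4 genes all knockout arrays were above the wild-type: Ptprq, a phosphatase of the hair bundle, by 0.39 (SE 0.11), Tmc1, which forms the mechanotransduction channel of hair bundles, by 0.22 (SE 0.06), Pou4f3, a transcription factor that hair cells need to survive, by 0.13 (SE 0.07) and Espn, an actin bundling protein, by 0.11 (SE 0.05). In 3 genes all were below it: Lhfpl5, a partner of the transduction channel, by -0.20 (SE 0.06), Clrn1, a hair bundle protein, by -0.13 (SE 0.05) and Cdh23, a cadherin of the tip links, by -0.10 (SE 0.05). Of all genes, 6.59% had every knockout array above the wild-type and 11.3% every one below it. Relative to the mean of that list in the same array, a setting chosen after the data had been seen, Ocm differed by 0.17, Slc26a5 by -0.17, Kcnma1 by -0.23 and Kcnn2 by -0.27, with adjusted p-values of 0.299, 0.272, 0.190 and 0.2375 in limma. Chrna9 differed by 0.22, Chrna10 by -0.16 and Ikzf2 by -0.08. This setting takes the same amount from every gene of an array. The median over all genes was -0.06 under it, against -0.01 in the main analysis, so the downward shift is not particular to these genes. Of the other outer hair cell genes, 7 of 8 were measured, 3 higher and 4 lower, with a median of -0.04. That median was -0.01 after adding the Y-linked level to the model. Tmc1 is on that list as well; Bcl11b, a transcription factor, differed by 0.22 (SE 0.08) and Lbh by -0.20 (SE 0.10). Inner hair cell markers, all 6 measured, were 3 higher and 3 lower, with a median of -0.01. That median was -0.06 after adding the Y-linked level to the model. Cabp2, which is also on the calcium buffer list, differed by 0.19 (SE 0.06), without overlap. Fgf8 differed by 0.13 (SE 0.08) and Tbx2 by -0.13 (SE 0.08), with overlap. Slc17a8, the glutamate transporter that loads their vesicles, differed by -0.05 (SE 0.05).

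**Figure D3:**
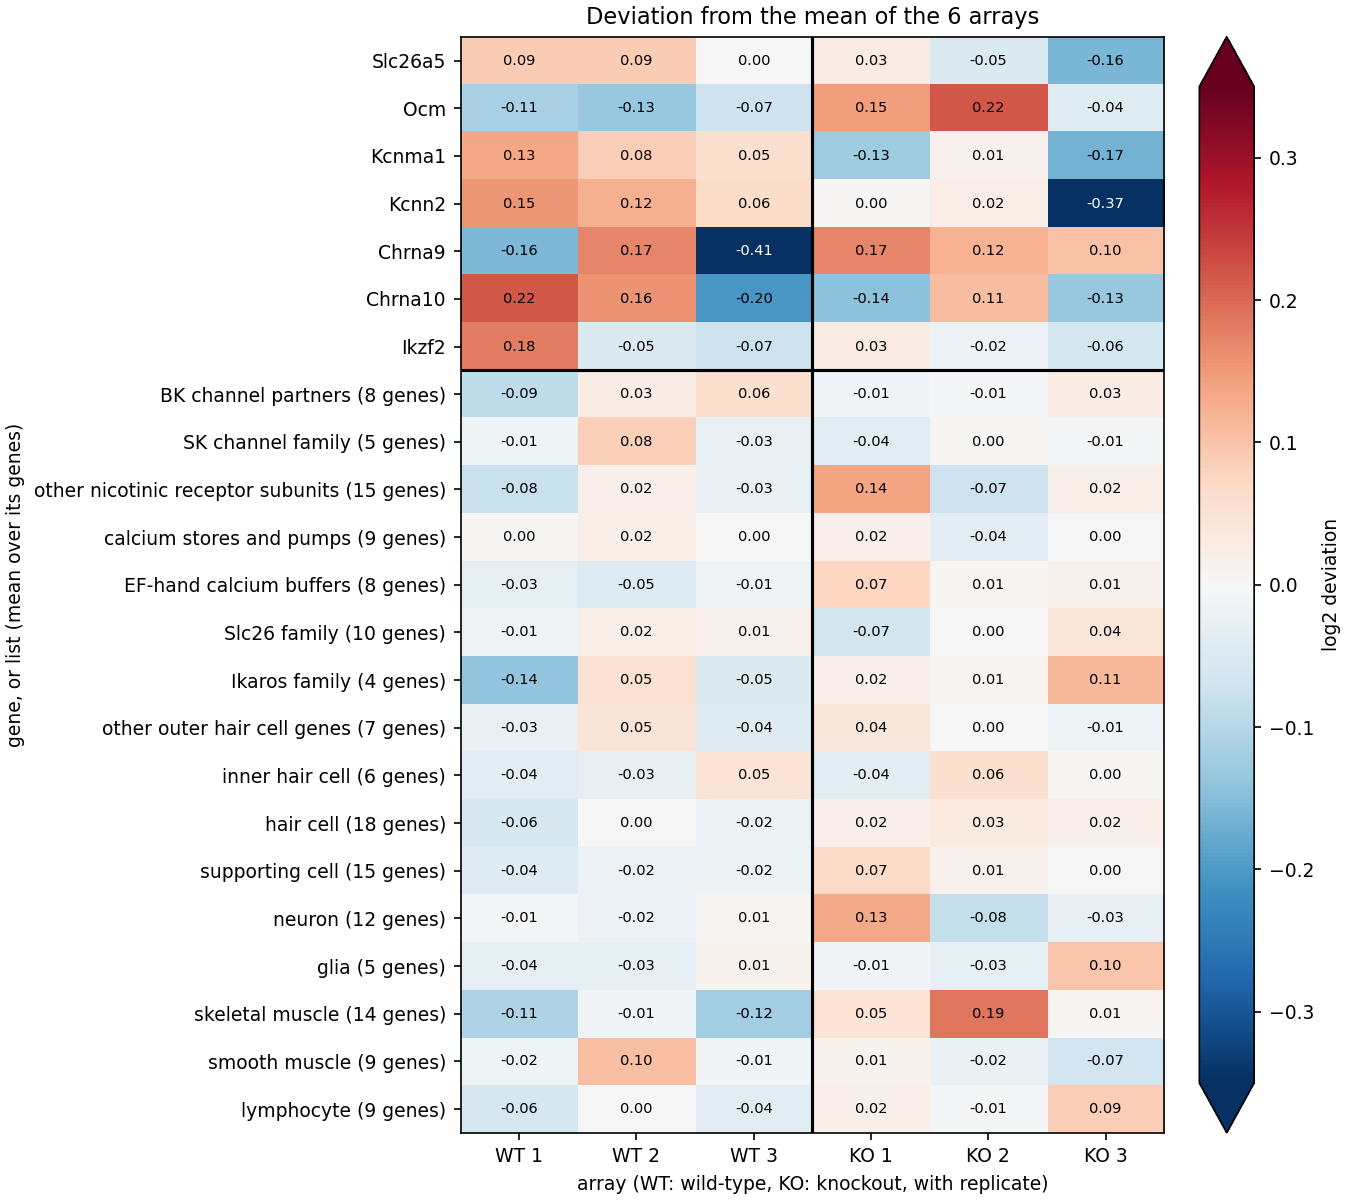
Deviation of each gene (top rows), or of the mean of each marker or pathway list (lower rows), from its mean over the 6 arrays, by array, on the log2 scale; red is above and blue below, and colours saturate at 0.35. Knockout replicate 3 is low for Kcnn2, Kcnma1 and Slc26a5, at -0.37, -0.17 and -0.16, while the hair cell list deviates by 0.02 there.

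Within each genotype the genes were not equally placed across the arrays. Knockout replicate 3 gave the lowest knockout value for 6 of the 7 genes, all but Chrna10, where 31.6% of all genes had their lowest knockout value in that array. Wild-type replicate 3 gave the lowest wild-type value for 6 of the 7, all but Ocm, against 32.5% of all genes. A lowest rank did not mean a low value in each case, since Chrna9 lay 0.10 above its mean over all arrays in knockout replicate 3. The mean of the other outer hair cell genes also had its lowest knockout value there, at a deviation of -0.015, and that of the hair cell list was level with replicate 1, at 0.02, while the mean of the 7 genes deviated by -0.12. This pattern was noticed after the values were seen.

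Differences between genes within an array were compared as well. Ocm minus Kcnma1 was 1.46, 1.39 and 1.31 in the knockout against 0.94, 0.97 and 1.06 in the wild-type. Ocm minus Kcnn2 was 1.30, 1.35 and 1.48 against 0.89, 0.90 and 1.02, and Slc26a5 minus Ocm was -1.94, -2.09 and -1.94 against -1.62, -1.60 and -1.75. The groups did not overlap in these 3 pairs, with shifts of 0.40, 0.44 and -0.33 and SDs within a genotype of 0.06 to 0.09. Both potassium channel pairs had to separate, since Ocm lay above and each channel gene below every wild-type array, so they restate the values above. Knockout replicate 3, which was low for both Ocm and Kcnn2, did not stand out toward the wild-type in their difference. Of 21 pairs compared, 7 had groups that did not overlap, each with the smallest possible exact two-sided permutation p of 0.1 and an adjusted p over the 21 pairs of 0.30, so none passed the adjustment. The difference between Ocm and other genes separated the genotypes in the same way for 44.9% of 19937 other genes, so the separation from the potassium channels is not particular to them. The remaining separated pairs were Ocm with Ikzf2, and Chrna9 with Slc26a5, Kcnma1 and Kcnn2. Against all other genes, Chrna9 separated with the knockout above for 18.7%. With the knockout below, Slc26a5 did so for 20.6%, Kcnma1 for 35.7% and Kcnn2 for 31.5%. The levels of different probe sets are not comparable, and only the shift between genotypes is read here.

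**Figure D4:**
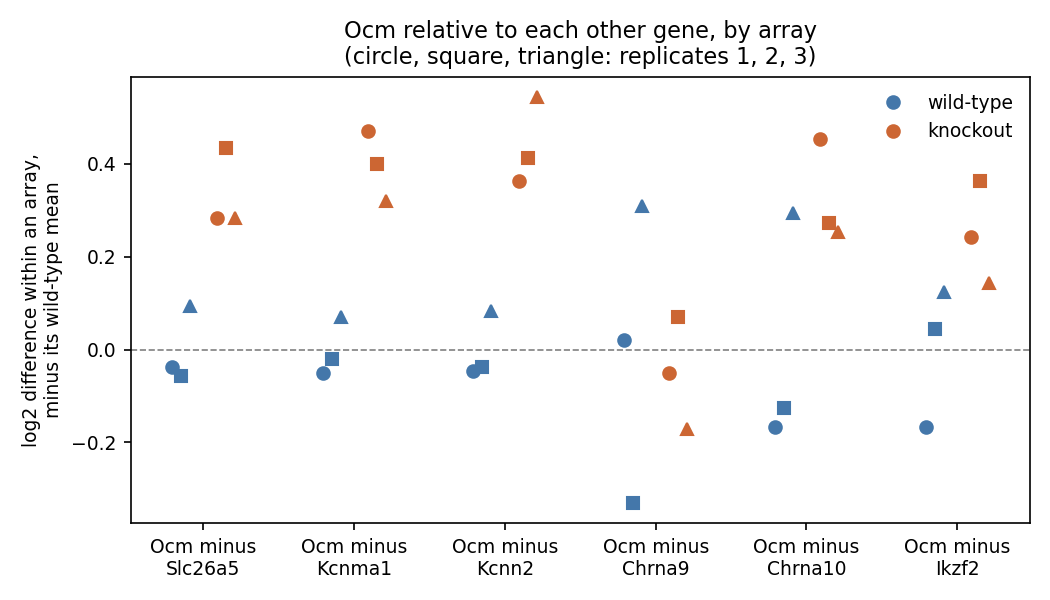
Log2 difference between Ocm and each other gene within the same array, with the wild-type mean of each difference set to 0; blue marks wild-type and orange knockout arrays, and shapes mark replicates. The knockout arrays lie above all wild-type arrays for Slc26a5, Kcnma1, Kcnn2 and Ikzf2, and the groups overlap for Chrna9 and Chrna10.

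The auxiliary proteins of the BK channel were all measured, 8 of 8, with 5 higher, 3 lower and none called. Their median was 0.09, and -0.12 after adding the Y-linked level to the model. Lrrc52, a leucine-rich repeat protein of the family that shifts BK gating, read 6.65, 6.46 and 6.34 in the knockout and 7.03, 6.94 and 6.96 in the wild-type. All knockout arrays were lower, and its difference of -0.49 (SE 0.08, adjusted p = 0.130) was the largest in size among these partners. Lrrc55, of the same family, went the other way at 0.22 (SE 0.07, adjusted p = 0.315), also without overlap. The beta subunit gene Kcnmb3 differed by 0.15 (SE 0.08). Kcnmb1, the smooth muscle beta subunit, differed by 0.08 (SE 0.06).

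Relatives of SK2 and the calmodulins that gate it had small differences. Of 6 listed genes 5 were measured, 2 higher and 3 lower, none at an unadjusted p under 0.05. The median of these genes was -0.01, and -0.04 after adding the Y-linked level to the model. Kcnn1 differed by -0.11 (SE 0.08), Kcnn4 by -0.08 (SE 0.06) and Calm2 by 0.03 (SE 0.05). For calcium stores and pumps, which shape the calcium signal beneath the efferent synapse, 9 of 10 genes were measured, 2 higher and 7 lower, none called. Ryr1, the ryanodine receptor of skeletal muscle, differed by 0.26 (SE 0.07, adjusted p = 0.217), Atp2a3, a calcium pump of the endoplasmic reticulum, by -0.14 (SE 0.06) and Ryr3 by -0.09 (SE 0.07). Atp2b2, the calcium pump of the hair bundle, differed by -0.05 (SE 0.05). The median of the store and pump genes was -0.03, and 0.01 after adding the Y-linked level to the model.

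Among the other nicotinic receptor genes and rapsyn, 15 of 15 were measured, 9 higher and 6 lower, and none was called. Their median was 0.02, and 0.05 after adding the Y-linked level to the model. Chrna1, the alpha subunit of the muscle receptor, read 6.18, 6.01 and 6.22 in the knockout and 5.70, 5.79 and 5.74 in the wild-type. The groups did not overlap, and the difference was the largest among them, at 0.39 (SE 0.07, adjusted p = 0.139). Chrng, the fetal muscle subunit, differed by 0.19 (SE 0.07) and Chrna2, a neuronal subunit, by 0.15 (SE 0.06), both without overlap. Skeletal muscle markers also read higher: 13 of 14 measured were higher and 1 lower, with list means of 6.42 to 6.60 in knockout arrays and 6.29 to 6.405 in wild-type arrays. Myh4 and Tnnc2, contractile proteins of fast muscle, differed by 0.35 (SE 0.07) and 0.39 (SE 0.09), and Pygm, a glycogen phosphorylase, by -0.41 (SE 0.06). None of these was called, and the part of muscle in the receptor differences, Chrna9 included, was not tested.

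Calcium buffers other than oncomodulin showed no common direction. Of 9 listed EF-hand genes 8 were measured, 4 higher and 4 lower. The list median was -0.02, and 0.03 after adding the Y-linked level to the model. Pvalb, the parvalbumin gene closest in kind to Ocm, differed by -0.06 (SE 0.05). Calb1, which encodes calbindin, had the widest spread, reading 8.77, 7.78 and 8.35 in the knockout and 7.71, 7.51 and 7.92 in the wild-type. Its difference of 0.59 (SE 0.22, adjusted p = 0.353) came with overlapping groups. Cabp2, a calmodulin-like regulator of hair cell calcium channels, differed by 0.19 (SE 0.06) and S100a1 by -0.16 (SE 0.06), both without overlap.

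Of the paralogs of prestin, all 10 other Slc26 genes were measured, 4 higher and 6 lower, with a median of -0.02. That median was -0.08 after adding the Y-linked level to the model. Slc26a4, which encodes the anion exchanger pendrin of cochlear epithelium, differed by -0.28 (SE 0.10, adjusted p = 0.334), Slc26a10 by 0.13 (SE 0.06) and Slc26a9 by 0.15 (SE 0.08). Of the 4 relatives of Helios in the Ikaros family 3 were higher and 1 lower. Their median was 0.105, and -0.008 after adding the Y-linked level to the model. Ikzf1, a lymphocyte factor, differed by 0.17 (SE 0.09), Ikzf3 by 0.16 (SE 0.13) and Ikzf4 by 0.05 (SE 0.06). Over these pathway lists no gene was called.

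**Figure D5:**
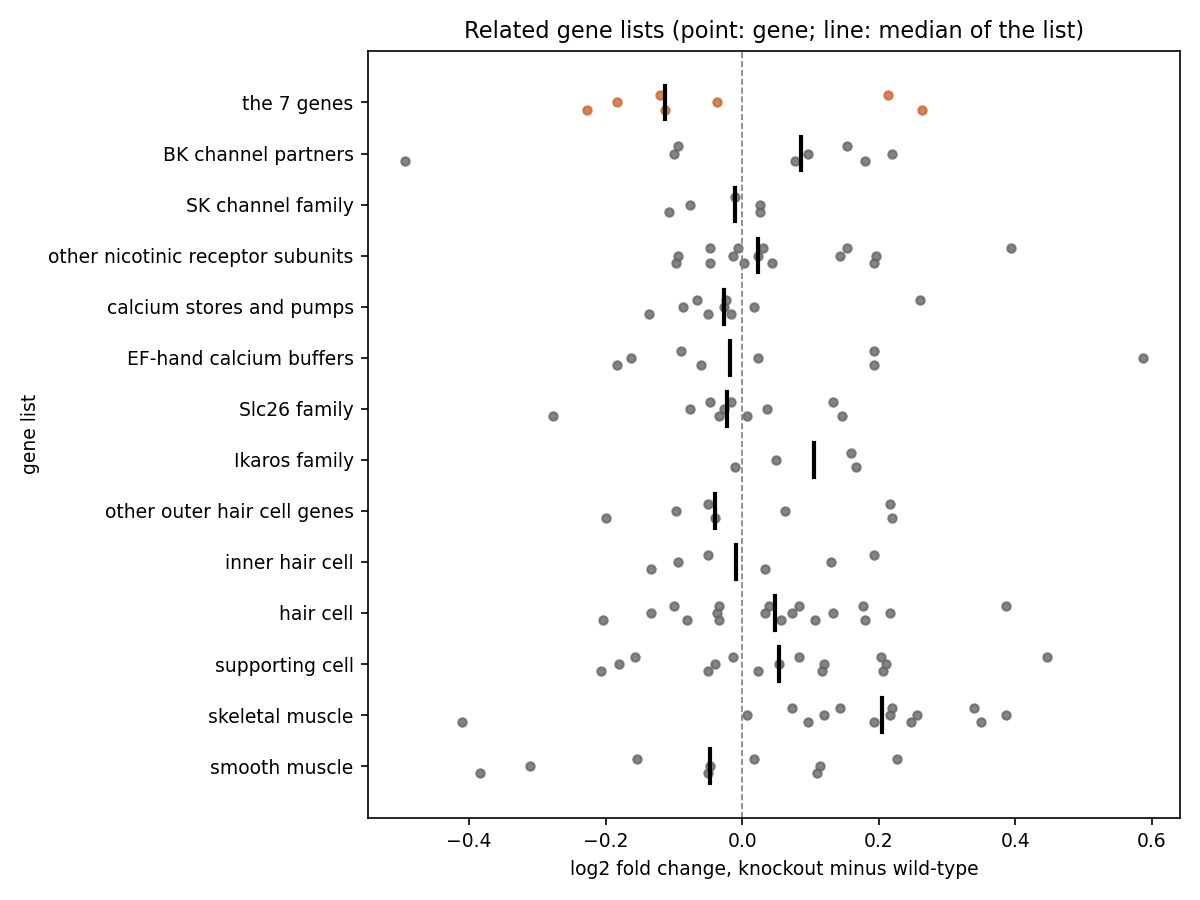
Log2 fold change, knockout minus wild-type, of every measured gene (points) in the 7 genes and in related gene lists, with the median of each list as a black line. The medians of the channel, receptor, calcium, Slc26, Ikaros and hair cell lists lie between -0.04 and 0.105, that of the 7 genes at -0.11 and that of skeletal muscle genes at 0.205.

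Genes with the most similar profile across the 6 arrays were sought among 9676 or 9677 genes at or above the median level, by Pearson r, as a description without a test. The closest to Slc26a5 were Wasl (r = 0.997) and Mthfd1l (r = 0.993), to Kcnma1 Tomm34 (0.9985) and Mccc2 (0.993), and to Kcnn2 Mrpl20 (0.994) and Rgs7bp (0.992). The profile of Ocm had the least close partners, Ppp1r14a (r = 0.9635) and Cacng4 (0.963). Chrna9 was closest to Xrcc3 and Vmac (r = 0.988 and 0.987), Chrna10 to Mettl7a1 and Rpl26 (0.978 and 0.974) and Ikzf2 to Wdr44 and Mbtps1 (0.996 and 0.984). With 6 arrays such values are common: r exceeded 0.9 for 19 genes with Ocm, 211 with Slc26a5 and 345 with Kcnma1. The profiles share the arrays and the genotype difference.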

How the data were processed

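Affymetrix mouse gene ST arrays measured 6 samples. The deposited values are log2 probe set summaries; per the submitters' processing notes they were made with the Affymetrix Expression Console, while summarization, normalization and build are not stated in the labels read here. Array medians ran from 6.66 to 6.69 and values from 2.02 to 14.08, so nothing was rescaled. The number of arrays limits precision. Names came from the platform annotation, for probe sets with 1 symbol (1621 had several and 12147 were not listed), with symbols updated through RefSeq on GRCm38.p6. The probe set with the highest mean represented a gene, which left 19938 genes. The genotype comparison used lmFit and eBayes of limma 3.58.1 (R 4.3.3), with Benjamini-Hochberg adjustment over all genes, called at an adjusted p under 0.05; SEs, 95% intervals and adjusted p-values come from this fit unless another is named. The step was tested on simulated data. The 7 genes and all lists were chosen with earlier results of these data known. Named were the 7 genes, Pjvk, and the 2 genes closest in profile to each of the 7. Up to 3 genes by unadjusted p were named of each pathway, hair cell and muscle list. The supporting cell, neuron, glia, lymphocyte and Y-linked lists had none named by that rule. Nefl, Mbp, Pvalb, Atp2b2, Kcnmb1 and Slc17a8 were added for their roles. Myo6, Myo15, Tecta and Epyc were added as the ends of their lists' range. Pou4f3, Espn, Clrn1 and Cdh23 were added as hair cell genes without overlap. All of these additions were made after their values were seen. Filters, normalizations, probe set rules, priors, array weights, a replicate block, the Y-linked level as a model term and leaving out each array were tried as alternatives.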

Additional observations from a re-analysis of the deposited data

How the results depend on the processing

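None of the 7 genes passed an adjusted p under 0.05 under any setting tried. Signs turned after adding the Y-linked level to the model for Slc26a5 (0.013), Chrna10 (0.21) and Ikzf2 (0.17), and without wild-type replicate 1 for Ikzf2, which ran from -0.082 to 0.043 with 1 array left out. Each knockout array had a lower Y-linked level than each wild-type array, so this term and the genotype can hardly be told apart. Ocm stayed higher (0.16 to 0.29), Kcnma1 lower (-0.24 to -0.10), Kcnn2 lower (-0.295 to -0.02) and Chrna9 higher (0.125 to 0.48) throughout. Chrna10 ran from -0.24 to -0.03 with 1 array left out. The count of genes called, 7 in the main analysis, was 20 above the 25th percentile of level, 45 above the median level, 18 after centring on array medians, 112 with an intensity trend and robust priors, 26 relative to the hair cell list and 2 to 6 with 1 array left out (2 without wild-type replicate 1 or 2, 3 without knockout replicate 3). With the Y-linked term limma called 0, with 1087 genes at an unadjusted p under 0.05. The filters test fewer genes; the causes of the other shifts were not tested. Equal replicate numbers are not said to pair samples, and the deviations of same-numbered arrays correlated at 0.08, 0.02 and -0.01, with 3 of 6 arrays closest to their own number. With the replicate block 1 gene was called, and the adjusted p-values of the 7 genes ran from 0.396 to 0.832. Of 170 list medians under these settings, 154 moved by less than the spread between replicates and 16 by more. Among the 16 were the BK, calcium store, EF-hand, Slc26, Ikaros, hair cell and inner hair cell medians under the Y-linked term. With that term the SK, nicotinic and other outer hair cell medians moved by less. Background correction, and slide or scan as a block, could not be tried, since single-probe signals were not used here. Chrna9 and Chrna10 fell below the median level and have no value under that filter.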
